A study of Drosophila melanogaster with 6 samples.

Results

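The transcriptome described here is that of *Pyk*23/+ heterozygous larvae, the control genotype of a study of *Drosophila melanogaster* that lack pyruvate kinase (Pyk), the enzyme of the final step of glycolysis. Its members are the 3 of 6 libraries that carry the control label, and they were chosen by that label alone. Each library was made from whole second-instar (L2) larvae raised at 25°C on molasses agar with yeast paste, males and females mixed. The larvae carry 1 copy of *Pyk*23, a CRISPR/Cas9 frameshift deletion in the coding sequence, and 1 wild-type copy, so they are not wild type, and no library of larvae with 2 wild-type copies was analysed here. The methods name the samples biological replicates of whole animals, while separate collections are described only for the metabolomics, so the spread given here is that between these 3 samples.

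The second instar is a short feeding stage between the first and second larval molts. The larva at this stage is largely a feeding animal enclosed in a cuticle that the epidermis must replace at each molt. Its body wall muscle is built from sarcomeres, the repeating units of actin and myosin. The midgut secretes proteases and carbohydrases, and the fat body combines functions of liver and adipose tissue. Larvae increase their mass many times before metamorphosis, which requires continuous production of ribosomes, and they are known for using glycolysis with lactate production alongside respiration. A whole-animal library pools the RNA of all of these tissues, so fewer cells of a type and less RNA per cell cannot be told apart.

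The 3 libraries held 11616474, 11784491 and 11249487 read pairs assigned to a gene in replicates 1, 2 and 3. Of 17869 genes in the tables, 11227 had at least 1 count in every control, 9594 had at least 10 counts in every control, and 4896 had none in any control. Among 13920 protein-coding genes, 9384 reached 10 counts in every control and 3489 stayed at 3 counts or fewer in every control. A count of 0 allows up to 3 counts, which corresponds to 0.255 to 0.267 CPM (counts scaled to library size) at these depths. Levels are compared between genes only as TPM, in which counts are divided by exon length before they are scaled to the same total. Errors are the SD over the 3 replicates throughout.

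Replicate 3 stood apart from replicates 1 and 2, and results that rest on it are given with and without it. Over the genes with at least 10 counts in the pair together, the chi-square per degree of freedom was 3.51 between replicates 1 and 2, 15.4 between replicates 1 and 3 and 15.5 between replicates 2 and 3. Over the 7336 genes with a mean of at least 100 counts, which do not vary independently of each other, Spearman's rho was 0.994, 0.963 and 0.966 for the same pairs. The biological coefficient of variation estimated by edgeR was 19.0% with all 3 libraries and 4.31% without replicate 3, against 20.9% without replicate 1 and 22.6% without replicate 2. No pair differed by less than the counting error, so all 3 were kept as separate samples.

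Transcript abundance was concentrated in a small number of genes. The most counted gene took 6.62% ± 0.521 of the assigned pairs, the 10 most counted took 16.2% ± 0.440, the 100 most counted took 37.0% ± 0.532, and the 1000 most counted took 72.0% ± 0.587. The genes needed to reach 50% of the pairs numbered 219, 230 and 232 in replicates 1, 2 and 3, and those needed to reach 90% numbered 3241, 3290 and 3381. On the TPM scale 163 genes exceeded 1000 and 1250 exceeded 100. The median protein-coding gene with at least 10 counts in every control had 16.6 TPM, with quartiles of 6.65 and 45.8 TPM.

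**Figure D1:**
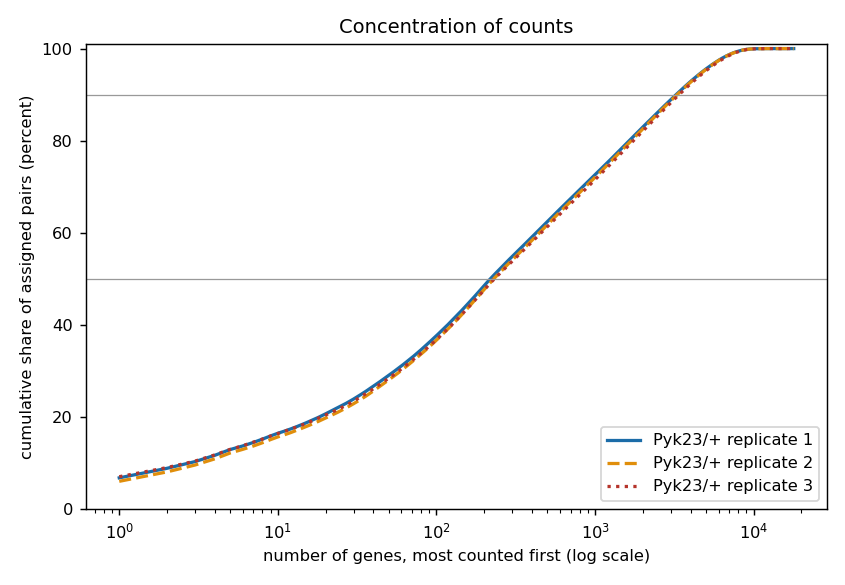
Cumulative share of assigned read pairs (percent, vertical axis) against the number of genes ranked from the most counted (horizontal axis, log scale), 1 line per *Pyk*23/+ replicate, with horizontal lines at 50% and 90%. The 3 lines nearly coincide, crossing 50% at 219 to 232 genes and 90% at 3241 to 3381 genes.

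By the class of RNA, protein-coding genes held 92.8% ± 0.521 of the pairs and rRNA genes 6.62% ± 0.521, nearly all of the second from 1 mitochondrial rRNA. Noncoding RNA genes held 0.291% ± 0.00575, and snoRNA genes 0.0111% ± 0.000765. The kit selects RNA with poly(A) tails, so these shares describe that fraction and not total RNA. By chromosome, 2R and 3R held 20.3% and 20.6%, 2L and 3L held 17.2% and 16.3%, X held 12.4%, and the small chromosome 4 held 2.72%. The Y chromosome held 0.00028% over 113 genes, of which 1 reached 10 counts in every control. The median protein-coding gene with 10 counts in every control had 14.2 TPM on X, 24.8 TPM on chromosome 4 and 16.4 to 18.0 TPM on the 4 arms of chromosomes 2 and 3.

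Ranked by mean TPM, the 20 most abundant transcripts comprised 6 of the mitochondrial genome, 5 of cytosolic ribosomal proteins, 3 of the sarcomere, 3 of the larval cuticle and 3 others. The first was *mt:lrRNA* (mitochondrial genome, 12735 to 14058, minus strand), the large ribosomal RNA of the mitochondrion, at 79262, 71279 and 82064 TPM in replicates 1, 2 and 3. The next nuclear transcript was *Act57B*, a muscle actin, at 18566, 18556 and 17756 TPM. Replicate 2 was the lowest for the rRNA, and replicate 3 the lowest for the actin. The 3 others in the list were *eEF1alpha1* (9003 ± 489 TPM), the elongation factor that delivers aminoacyl-tRNA to the ribosome, *Nplp2* (7377 ± 388 TPM), annotated as a neuropeptide-like precursor, and *sesB* (4373 ± 249 TPM), the ADP/ATP carrier of the inner mitochondrial membrane.

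**Figure D2:**
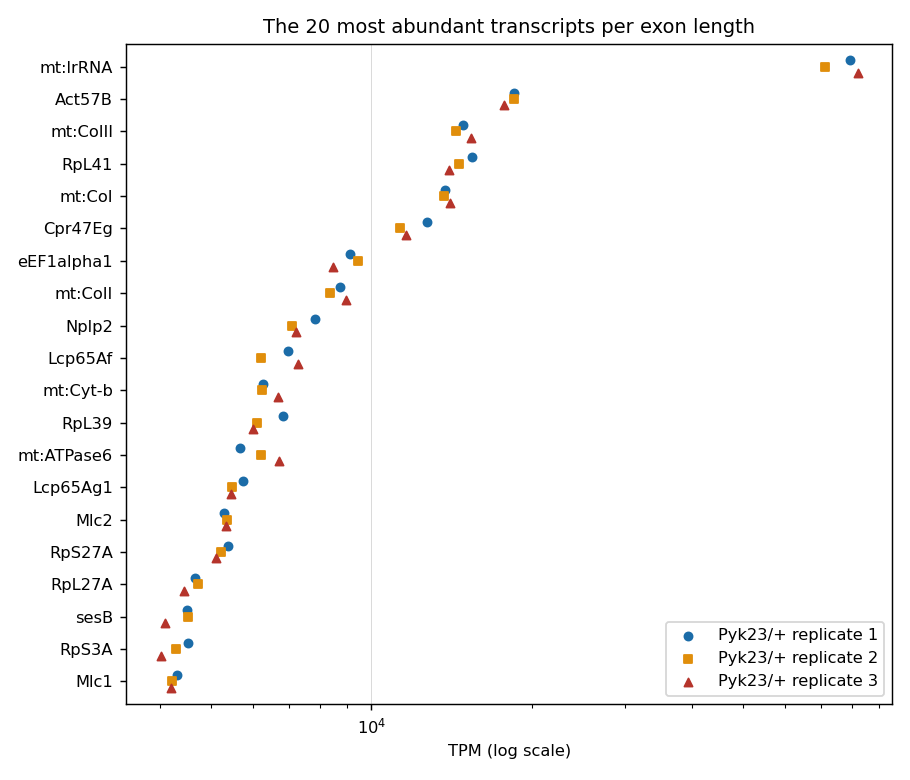
TPM (horizontal axis, log scale) of the 20 transcripts with the highest mean TPM, from the highest at the top, with 1 point per *Pyk*23/+ replicate. *mt:lrRNA* lies apart at 71279 to 82064 TPM, and the points of the 3 replicates lie close together for every gene shown.

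Without regard to length, the 10 most counted genes were *mt:lrRNA*, *Act57B*, *eEF1alpha1*, *mt:CoI*, *Mhc*, *Mlc2*, *mt:CoIII*, *eEF2*, *apolpp* and *sesB*. The long genes *Mhc*, the muscle myosin heavy chain, and *apolpp*, the precursor of the main lipid-carrying apolipoproteins of the hemolymph, entered this ranking but not that by TPM. *Mhc* had 145182, 150484 and 134949 counts and 2128 ± 79.8 TPM, and *apolpp* had 79705, 80368 and 74473 counts and 892 ± 20.4 TPM.

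Of the 100 transcripts with the highest TPM, 55 encode cytosolic ribosomal proteins, 7 sarcomere proteins, 6 cuticle proteins, 4 nuclear-encoded subunits of the respiratory chain and 4 translation factors, and 6 come from the mitochondrial genome. A further 12 belong to none of the gene lists used here. Among these 12 were *Acbp5* (2710 ± 316 TPM) and *Acbp3* (2318 ± 39.9 TPM), which encode acyl-CoA-binding proteins, *Mp20* (2674 ± 56.7 TPM), a calponin-like muscle protein, *Rack1* (2244 ± 77.3 TPM), a protein of the small ribosomal subunit, and *awd* (2007 ± 111 TPM), the nucleoside diphosphate kinase. *Vajk2* and *Vajk3*, which lie in a cluster on 2L, had 2121 ± 84.6 and 2229 ± 73.8 TPM. Their neighbor *Vajk1* was counted 5, 8 and 535 times in replicates 1, 2 and 3, so members of 1 small family differed widely in both level and spread.

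**Figure D3:**
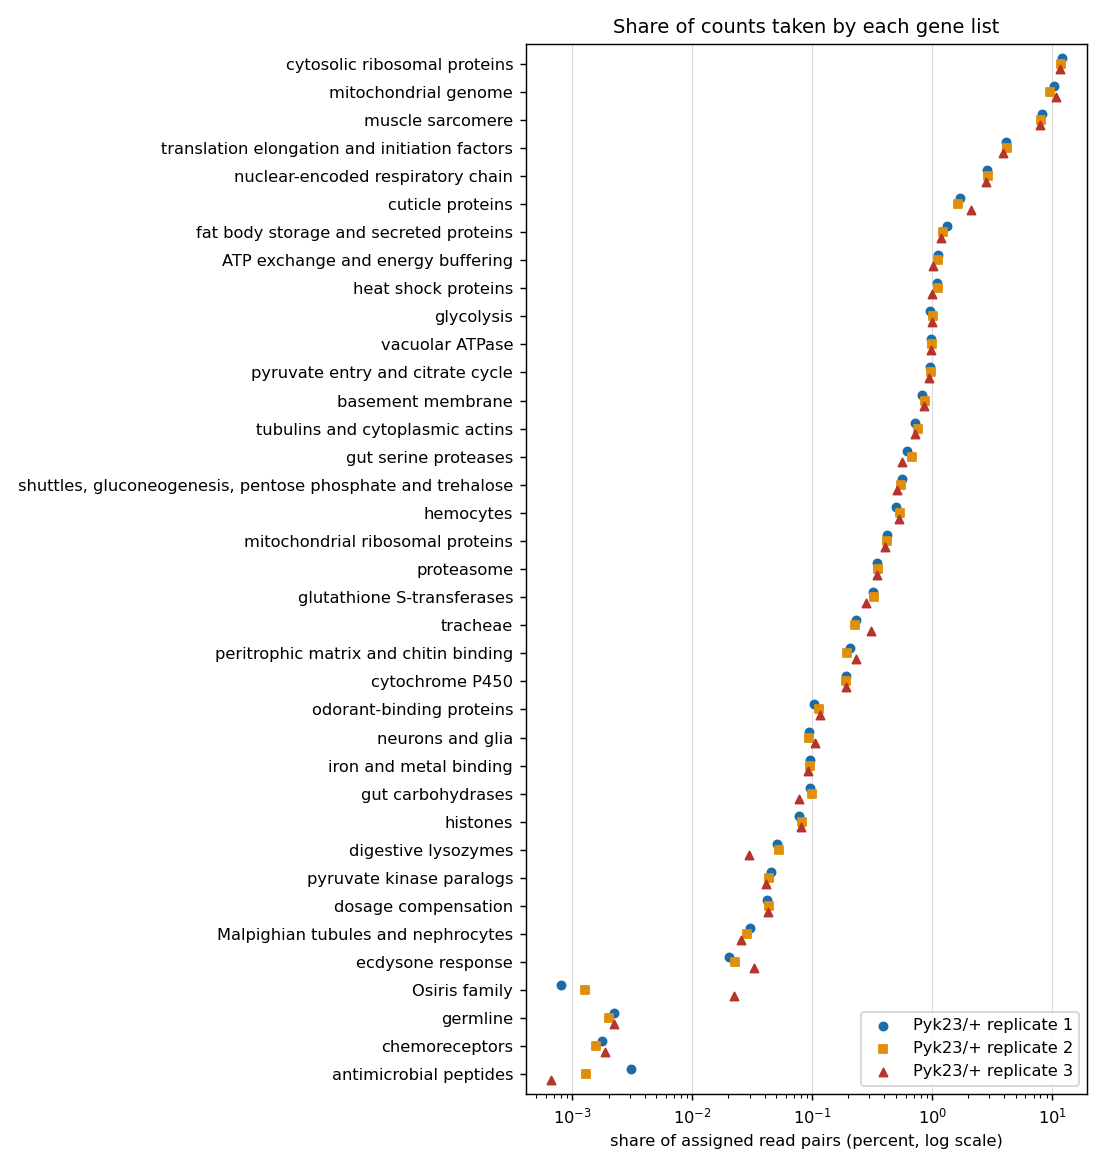
Share of assigned read pairs (percent, horizontal axis, log scale) taken by each gene list with a mean share of at least 0.001%, from the highest at the top, with 1 point per *Pyk*23/+ replicate. Cytosolic ribosomal proteins (11.5% to 12.1%), the mitochondrial genome (9.56% to 10.8%) and the sarcomere (7.96% to 8.19%) take the highest shares, and the Osiris family shows the widest spread, with replicate 3 on the right.

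Genes of the mitochondrial genome took 10.4%, 9.56% and 10.8% of the pairs in replicates 1, 2 and 3 (10.3% ± 0.643). This genome encodes 2 rRNAs, the tRNAs, and core subunits of the respiratory complexes. *mt:lrRNA* alone accounted for 64.5% of the pairs of the list, at 788535, 711220 and 791486 counts. Replicate 2 was the lowest in this share, and the difference between the replicates was far beyond the counting error, since the widest exact (Clopper-Pearson) 95% interval of any share of a list extended by 0.0187 percentage points to either side.

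Among the protein-coding genes of the mitochondrion, the subunits of cytochrome c oxidase had the highest levels. *mt:CoIII* had 14880 ± 475 TPM, *mt:CoI* 13825 ± 186 TPM and *mt:CoII* 8675 ± 298 TPM, followed by *mt:Cyt-b*, the cytochrome of complex III, at 6377 ± 247 TPM and *mt:ATPase6*, a subunit of the ATP synthase, at 6186 ± 519 TPM. Subunits of complex I lay lower. *mt:ND1*, *mt:ND4*, *mt:ND3* and *mt:ND5* had 1852 ± 179, 1591 ± 71.1, 1088 ± 173 and 1015 ± 102 TPM, whereas *mt:ND2*, *mt:ND4L* and *mt:ND6* had 96.1 ± 24.8, 45.0 ± 6.79 and 9.92 ± 1.90 TPM. The small rRNA *mt:srRNA* was counted 160, 167 and 141 times, far below *mt:lrRNA*. *mt:ATPase8*, a very short gene whose end overlaps the start of *mt:ATPase6*, was counted 7, 10 and 11 times. Pairs that lie on both genes are not assigned, so this count may understate its level. *mt:ND4L* likewise overlaps *mt:ND4*. These genes are made from shared precursor RNAs, and a level here is that of the counted fragments of each annotated gene. Of the 12 mitochondrial genes with a mean of at least 100 counts, 10 were highest in replicate 3, against 33.5% of all well counted genes.

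The nuclear-encoded subunits of the respiratory chain and ATP synthase took 2.86% ± 0.0653 of the pairs, and 68 of 91 listed genes had a mean of at least 100 counts, with a median of 310 TPM. *ATPsynC* (3617 ± 192 TPM) and *ATPsynbeta* (2620 ± 132 TPM) encode the membrane ring and the catalytic subunit of the ATP synthase, *blw* (2179 ± 106 TPM) its alpha subunit, and *Cyt-c-p* (2231 ± 42.7 TPM) the somatic cytochrome c. Of the 91 genes, 19 were at 3 counts or fewer in every control. Among proteins that pass ATP and ions on, *porin* (1112 ± 30.0 TPM), the channel of the outer membrane, and *Argk1* (1380 ± 88.6 TPM), the arginine kinase that buffers ATP in insect muscle, lay in the same range of TPM. *Ant2*, the second ADP/ATP carrier, which lies beside *sesB* on the X chromosome, had 6.06 ± 1.31 TPM, so the pair of carrier genes differed widely in level.

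Cytosolic ribosomal proteins formed the list with the highest share, at 12.1%, 11.95% and 11.5% of the pairs in replicates 1, 2 and 3 (11.9% ± 0.287) and 21.0% ± 0.580 of TPM. Their coding sequences are short, with a median of 466.5 bases against 1398 bases over 9372 nuclear protein-coding genes with at least 10 counts in every control, and the share was therefore larger per length. Of 87 listed genes, 84 had at least 10 counts in every control, 71 exceeded 1000 TPM, and the 82 well counted ones (a mean of at least 100 counts) had a median of 2479 TPM. *RpL41*, which encodes a peptide of very few residues, had 15460, 14628 and 13986 TPM. *RpL39* followed at 6301 ± 449 TPM, *RpS27A*, which is made as a fusion with ubiquitin, at 5233 ± 132 TPM, *RpL27A* at 4606 ± 152 TPM and *RpS3A* at 4274 ± 250 TPM. *RpL10Aa* and *RpS28a* were at 3 counts or fewer in every control. Within the list, replicate 3 was the lowest for 51 of 82 genes, against 41.2% of all 7336 well counted genes.

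Translation factors took 4.09% ± 0.144 of the pairs, with 35% of these from *eEF1alpha1*. *eEF2*, the translocase of the elongating ribosome, had 3598 ± 164 TPM, *eEF5*, which relieves stalls at proline-rich stretches, 3071 ± 144 TPM, and *eEF1gamma*, a part of the nucleotide exchange complex, 1897 ± 91.9 TPM. The 43 well counted factors of the list had a median of 256 TPM. Ribosomal proteins of the mitochondrion were lower again, with 0.415% ± 0.0117 of the pairs over 75 genes and a median of 98.2 TPM over the 74 well counted ones. Their highest member, *mRpL12*, had 219 ± 7.96 TPM, and *bonsai*, which encodes a protein of the small mitochondrial subunit, had 166 ± 8.91 TPM.

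Sarcomere genes took 8.19%, 8.13% and 7.96% of the pairs in replicates 1, 2 and 3 (8.09% ± 0.118), and 25.1% of these came from *Act57B*. Of 30 listed genes, 26 had at least 10 counts in every control, 9 exceeded 1000 TPM, and the median of the 25 well counted ones was 564 TPM. *Mlc2* and *Mlc1*, the regulatory and the alkali light chains of myosin, had 5326 ± 39.6 and 4244 ± 63.3 TPM. The troponins *up* (troponin T), *wupA* (troponin I) and *TpnC47D* (a troponin C) had 2782 ± 47.9, 2327 ± 50.2 and 2225 ± 76.2 TPM, and the tropomyosin gene *Tm2* had 1763 ± 20.1 TPM. These proteins form the contractile and regulatory parts of both filaments, and their SDs were small against their means. The giant proteins of the sarcomere were lower per length, with *bt* (projectin) at 238 ± 11.5 TPM and *sls* (Sallimus, the fly titin) at 32.1 ± 0.798 TPM.

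The 2 sarcomere genes at 3 counts or fewer in every control were *TpnC4* and *fln*, which are known from adult flight muscle. *Act87E*, another actin of larval muscle, had 346 ± 11.3 TPM. Actin genes share long coding stretches, and pairs that map to more than 1 place were not counted, so levels within this family may be split or lost unevenly. In contrast to the ribosomal proteins, sarcomere genes were long and divided, with a median of 7 exons and a genomic span of 10847 bases for those with at least 10 counts in every control. Because of their length, their share of TPM was 4.60% against 8.09% of the counts.

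Cuticle protein genes took 1.72%, 1.63% and 2.12% of the pairs in replicates 1, 2 and 3 (1.82% ± 0.259), and 1.67% as the mean without replicate 3. The list holds the Cpr, Lcp, Ccp84 and Tweedle (Twdl) families, whose products bind chitin or build the layers of the larval cuticle. On the TPM scale their share was 4.64% ± 0.443, with 10 genes above 1000 TPM. Of 125 listed genes, 79 had at least 10 counts in every control and 24 were at 3 counts or fewer. They are compact genes, with a median coding sequence of 573 bases and 2 exons, and 74.7% of those with at least 10 counts in every control have a single annotated transcript.

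*Cpr47Eg* was the most abundant cuticle transcript, at 12708, 11331 and 11596 TPM in replicates 1, 2 and 3. It was followed by *Lcp65Af* (6816 ± 554 TPM), *Lcp65Ag1* (5548 ± 168 TPM), *Lcp65Ag3* (3048 ± 61.6 TPM) and *TwdlO* (2530 ± 580 TPM). The Lcp65A genes lie in 1 cluster on chromosome arm 3L, and *Lcp65Ag1*, *Lcp65Ag2* and *Lcp65Ag3* are near copies of each other, so their levels relative to each other are uncertain. The classic larval cuticle protein genes of arm 2R were uneven, with *Lcp4* at 1105 ± 147 TPM and *Lcp2*, *Lcp1* and *Lcp3* at 45.8 ± 5.80, 9.39 ± 1.49 and 6.31 ± 1.66 TPM.

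Cuticle genes differed widely between the replicates. Over all well counted genes, 131 of 7336 (1.79%) were at least 2-fold higher in replicate 3 than in both other controls, and 31 of the 68 well counted cuticle genes were among them. Replicate 3 was the highest for 52 of the 68 and the lowest for 8, against 33.5% and 41.2% of all well counted genes. *TwdlM* had 1933, 2090 and 10056 counts in replicates 1, 2 and 3, *TwdlB* 1361, 1780 and 8435, *TwdlL* 1057, 1120 and 4606, and *Cpr64Ad* 609, 800 and 3393. Others had few counts in replicates 1 and 2, such as *TwdlD* with 21, 35 and 2040 counts and *TwdlW* with 7, 8 and 897. Such genes were well counted only through replicate 3. The numbers 31 and 52 of the 68 genes therefore followed in part from the minimum mean count. *TwdlM*, *TwdlB*, *TwdlL* and *Cpr64Ad* exceeded that minimum in each replicate. The 5 members given as the most abundant were not among the 31. *Cpr47Eg* had 40202, 35949 and 35564 counts, *Lcp65Ag1* 22302, 21298 and 20477, and *TwdlO* 16905, 17862 and 10973, and on the CPM scale replicate 3 was the highest for none of these 3 genes. *Lcp65Af* was highest in replicate 3, by a smaller margin, with 6967, 6203 and 7279 TPM. Replicates 1 and 2 lay closer to each other than to replicate 3 in each gene named here as at least 2-fold higher in replicate 3. This was not so for *Lcp65Af*. The coefficient of variation beyond counting error had a median of 33.6% over the 68 genes, against 3.49% over all well counted genes. The 68 include the genes well counted only through replicate 3, so this median too followed in part from the minimum.

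The Osiris genes, which encode membrane proteins of cuticle-secreting cells and lie mostly in 1 cluster on arm 3R, showed the same split more sharply. Of 25 genes, 12 were at 3 counts or fewer in every control, and the list took 0.000801%, 0.00127% and 0.0223% of the pairs in replicates 1, 2 and 3, and 0.00104% as the mean without replicate 3. *Osi2* had 39, 64 and 739 counts, *Osi15* had 3, 6 and 482, *Osi14* had 5, 11 and 252, and *Osi6* had 3, 2 and 398. All 3 members with a mean of at least 100 counts, *Osi2*, *Osi15* and *Osi6*, were over 2-fold higher in replicate 3. Each had fewer than 100 counts in replicates 1 and 2. They passed that minimum only through replicate 3, so this outcome followed from the minimum.

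The 131 genes higher in replicate 3 took 0.241%, 0.267% and 1.20% of the pairs in replicates 1, 2 and 3. All 131 are protein-coding, 78 are known only by a CG symbol, 36 were over 10-fold higher, and 39 belong to a gene list used here. They include 13 of 18 well counted genes with a Twdl symbol and 10 of 32 with a Cpr symbol. Many of the 131, such as *CG14147* (2, 1 and 645 counts), were well counted only through replicate 3. So were most of those over 10-fold higher. All of these numbers therefore followed in part from the minimum mean count. The cuticle protein gene *Tb*, given below, has neither symbol and is not counted in the cuticle list. Other members of the 131, named after their values were seen, include *ple* (841, 848 and 1966 counts), which encodes tyrosine hydroxylase, *Ddc* (174, 252 and 538 counts), dopa decarboxylase, both enzymes of cuticle tanning, *y* (193, 212 and 622 counts), the pigmentation gene yellow, and *Tb* (8, 17 and 902 counts), a cuticle protein that shapes the body. *snu* (500, 511 and 1003 counts), an ABC transporter needed for the outer barrier of the cuticle, and *sit* (1479, 1562 and 3991 counts), a fatty acid elongase, were also among them. In the opposite direction, 2 genes (0.0273%) were at least 2-fold lower in replicate 3 than in both other controls, *Uro* and *LysC*. Replicate 1 was at least 2-fold lower than both others for 9 genes (0.123%) and at least 2-fold higher for none. Replicate 2 had no such gene in either direction. Of the 9 genes, 3 belong to the cuticle list (*Ccp84Ae*, *Ccp84Af* and *TwdlC*). These 3 were also among the 131 genes higher in replicate 3, as were others of the 9, such as *CG14422* (4, 186 and 424 counts). No test was made, because a single library has no replicate of its own.

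Some genes that respond to ecdysone, the steroid that times each molt, were higher in replicate 3. The ecdysone-response list took 0.0203%, 0.0227% and 0.0326% of the pairs in replicates 1, 2 and 3, and 2 of its 8 well counted genes were over 2-fold higher in replicate 3, against 1.79% of all well counted genes, while 5 of the 8 were highest there. The 2 genes over 2-fold higher were *ftz-f1* (151, 150 and 438 counts), a nuclear receptor that follows the ecdysone pulse, and *Eip74EF* (31, 54 and 408 counts), an early ecdysone-response gene. *Eip74EF* was well counted only through replicate 3, so its call followed in part from that minimum. *Eip75B*, another early response gene, had 790, 892 and 1086 counts, and *EcR*, the receptor, had 306, 321 and 388. The receptor partner *usp* had 282, 318 and 284 counts and did not follow. *Eip93F*, which acts at metamorphosis, was at 1 count or none in each library. The part of the larvae's progress toward the molt in the difference between these libraries was not tested, and the labels give a single stage for all 3.

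Lists of tracheal and chitin-binding genes took a higher share in replicate 3 as well. *Gasp* stands in both lists, so their shares are not independent of each other. Tracheal markers took 0.233%, 0.225% and 0.307% of the pairs, with *verm* at 10489, 10117 and 13668 counts and *serp* at 6374, 6265 and 9173 counts, both chitin deacetylases, and *Gasp*, a chitin-binding protein, at 1620, 1417 and 2573 counts. Replicate 3 was the highest for 7 of the 8 tracheal genes, against 33.5% of all well counted genes, though *pio*, a membrane-anchored matrix protein, differed less (78.0, 84.1 and 84.7 TPM), and *btl*, the FGF receptor of tracheal cells, had 3.86, 4.11 and 3.77 TPM. Peritrophic matrix and other chitin-binding genes took 0.205%, 0.196% and 0.232%, with *Peritrophin-15a* at 739 ± 51.8 TPM and *obst-A* at 441 ± 56.3 TPM as the highest members. Odorant-binding proteins, small carriers of hydrophobic molecules, took 0.104%, 0.113% and 0.116%, led by *Obp56a* (1248 ± 212 TPM). Replicate 3 was the highest for 2 of their 10 well counted members and the lowest for 3, and *Obp56d*, with 825, 760 and 2708 counts, was the member over 2-fold higher there.

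**Figure D4:**
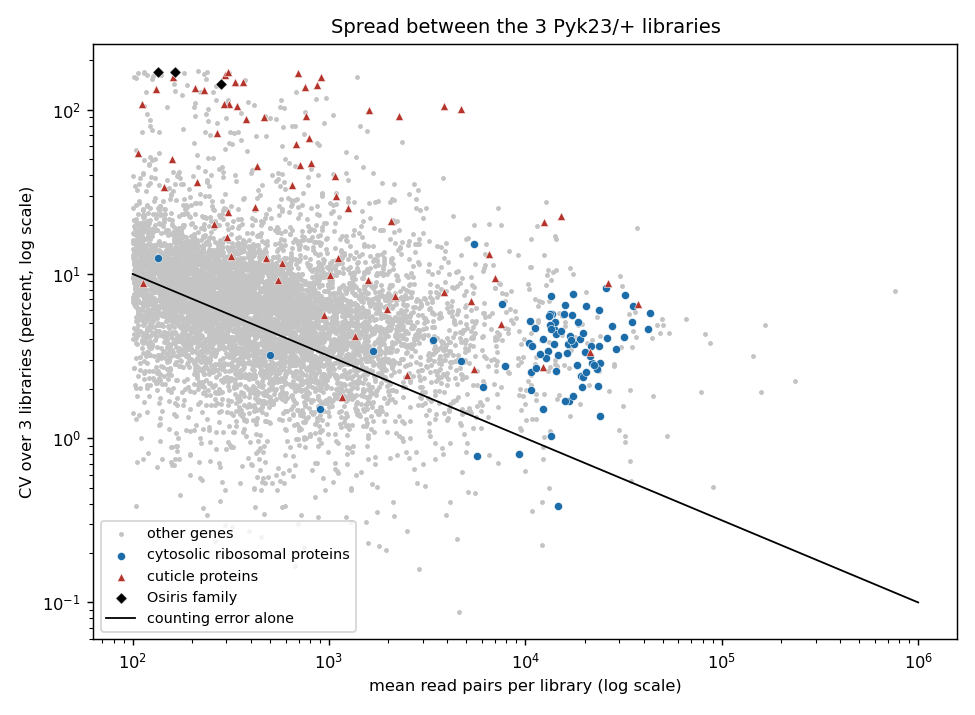
Coefficient of variation over the 3 *Pyk*23/+ replicates (percent, vertical axis, log scale) against the mean count (horizontal axis, log scale) for the 7336 genes with a mean of at least 100 counts, with the line that counting error alone would give. Cuticle genes (triangles) and Osiris genes (diamonds) reach far above the line, with a median excess of 33.6% for the cuticle genes, whereas ribosomal protein genes (circles) lie low, with a median of 3.63%.

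For most of the transcriptome the replicates differed little. The median coefficient of variation was 5.99% over the 7336 well counted genes (quartiles 3.54% and 9.51%), and 3.49% after the counting error was subtracted. For 2551 genes (34.8%) the spread was no larger than counting error, whereas 124 genes exceeded 50% beyond it. The excess changed little with level, from a median of 3.30% in the lowest of 5 equal bins of TPM to 3.95% in the highest bin. Without replicate 3 the median excess was 0%. Negative values are set to 0, so with 2 libraries this median cannot show that replicates 1 and 2 differed by counting error alone. Their chi-square per degree of freedom was 3.51.

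The 12 genes with the largest excess variation had few counts in replicates 1 and 2, at most 8 for any gene other than *TwdlD* (21 and 35), and far more in replicate 3. They were *CG14147* (2, 1 and 645 counts), *CG15731* (5, 2 and 714 counts), *Osi6*, *Muc91C* (2, 3 and 339 counts), *TwdlW*, *CG13049* (4, 4 and 466 counts), *CG14752* (1, 6 and 400 counts), *Osi15*, *CG2150* (2, 5 and 334 counts), *Vajk1*, *CG14095* (3, 5 and 311 counts) and *TwdlD*. *Muc91C* encodes a mucin, and the Osiris and Twdl members are described above. Among genes with a mean of at least 1000 counts, the 8 with the smallest coefficient of variation ran from *zormin* (0.0874%), a protein of the sarcomere, through *Gs2*, a glutamine synthetase, *REG*, a proteasome activator, *sxc*, the O-GlcNAc transferase, *trol*, the perlecan of basement membranes, *CLIP-190*, a microtubule-binding protein, and *LanB1*, a laminin chain, to *ND-SGDH* (0.273%), a subunit of complex I. Their spread was no larger than counting error, as was that of 17.2% of the 1746 genes at this depth.

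Lists of basic cellular machinery varied little. The 31 well counted proteasome genes had a median excess variation of 0.703% and took 0.348% ± 0.00428 of the pairs, with *Prosalpha2* (213 ± 7.03 TPM) and *Prosbeta5* (195 ± 7.20 TPM) as the highest members. The 20 well counted genes of the vacuolar ATPase, the proton pump of lysosomes and of acid-secreting cells, had 1.56% and took 0.984% ± 0.00801, led by *Vha16-1* (1407 ± 20.8 TPM), the proteolipid of the membrane ring. Sarcomere genes had 1.90%, the respiratory chain 2.37% and the cytosolic ribosomal proteins 3.63%. These medians lie at or below that of all well counted genes, except for the last.

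Digestive enzymes of the midgut were spread more widely than these. Trypsin and Jonah serine proteases, which cleave dietary protein, took 0.611%, 0.681% and 0.561% of the pairs in replicates 1, 2 and 3 (0.618% ± 0.0603) and 1.07% of TPM. Of 31 genes, 27 were well counted, with a median of 237 TPM and a median excess variation of 11.6%. *Jon25Biii* had 2072, 2270 and 1888 TPM, *Jon65Aiv* 1485, 1896 and 1380 TPM and *Jon25Bi* 1155, 1397 and 921 TPM, so that replicate 2 was the highest and replicate 3 the lowest for each. *Ser8*, *gammaTry* and *Ser12* were at 3 counts or fewer in every control. Most of these proteases are single-exon genes in clusters of close copies, with a median coding sequence of 795 bases, and reads that match more than 1 copy were not counted.

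Carbohydrases took 0.0962%, 0.0994% and 0.0778% of the pairs in replicates 1, 2 and 3 (0.0911% ± 0.0116). *Mal-A3* and *Mal-A1*, maltases of the midgut, had 2738, 2801 and 2133 counts and 2530, 2492 and 1637 counts, and *Amy-p*, the proximal amylase, had 88.9 ± 11.1 TPM. *Amyrel*, a relative of the amylases, had 505, 551 and 283 counts. Replicate 3 was the lowest for 9 of 11 well counted carbohydrases, against 41.2% of all well counted genes. The digestive lysozymes, which break down bacterial cell walls, took 0.0505%, 0.0530% and 0.0299%, and replicate 3 was the lowest for all 5 well counted ones, against the same 41.2%. *LysD* had 3356, 3427 and 1723 counts, *LysB* 1329, 1578 and 852, and *LysC*, annotated as a pseudogene, 164, 163 and 62. *LysX* and *LysP* were at 2 counts or fewer in every control. *LysC* was the only well counted gene of these digestive lists that was at least 2-fold lower in replicate 3 than in both others.

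Fat body genes took 1.33%, 1.24% and 1.19% of the pairs in replicates 1, 2 and 3 (1.25% ± 0.0748), with 53.9% of these from *apolpp*. On the TPM scale their share was 0.318%, since *apolpp* and *FASN1* are long. *FASN1*, a fatty acid synthase, had 686, 548 and 474 TPM, with replicate 1 the highest. *regucalcin* had 552 ± 22.6 TPM, and *Gnmt*, the glycine N-methyltransferase that consumes S-adenosylmethionine, had 360, 355 and 510 TPM, with replicate 3 the highest. The storage proteins that accumulate in the third instar were near the floor. *Lsp1alpha* had 3, 3 and 2 counts, *Lsp2* none, *Fbp1* 2, 2 and 1 and *Fbp2* 0, 0 and 2, while *Lsp1beta* had 8, 14 and 16 and *Lsp1gamma* 21, 23 and 13. *Adh*, the alcohol dehydrogenase of the fat body and gut, was counted 0, 3 and 1 times, but 93.9% of its exon bases are shared on the same strand with another annotated gene, and pairs in such bases were not assigned. Its low count is therefore no measure of its level.

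Glycolytic enzymes took 0.965%, 1.01% and 0.996% of the pairs in replicates 1, 2 and 3 (0.990% ± 0.0231), and all 13 listed genes were well counted, with a median of 359 TPM. *Pyk*, written *PyK* in the annotation used (3R:22367536-22372746, plus strand, BDGP6.54), had 5260, 5152 and 4617 counts, 453, 437 and 410 CPM and 312, 305 and 283 TPM (300 ± 15.4 TPM). It ranked 442nd of all genes by TPM, and replicate 3 was the lowest. Since each larva carries 1 *Pyk*23 copy, this level is the sum of both alleles, and the tables do not separate them. The highest glycolytic transcripts were those of the glyceraldehyde-3-phosphate dehydrogenases, *Gapdh2* at 1971 ± 47.6 TPM and *Gapdh1* at 1450 ± 70.9 TPM, followed by the aldolase gene *Ald1* at 812 ± 46.7 TPM and enolase, *Eno*, at 618 ± 23.8 TPM.

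Near *PyK* in level were *Tpi* (triose phosphate isomerase, 359 ± 25.1 TPM), *Pgk* (phosphoglycerate kinase, 299 ± 9.46 TPM) and *Ldh* (lactate dehydrogenase, 293 ± 24.5 TPM). The levels of *PyK*, *Pgk* and *Ldh* did not differ beyond their spread, each mean lying within 1 SD of the *PyK* mean. The enzymes that commit sugar to glycolysis were the lowest of the list, with *Pfk*, phosphofructokinase, at 124 ± 3.69 TPM and the hexokinases *Hex-A* and *Hex-C* at 93.7 ± 4.07 and 62.5 ± 5.18 TPM. *Ldh* had 3872, 4404 and 4418 counts, with replicate 1 the lowest.

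The other 5 pyruvate kinase paralogs of the fly were at or near the floor. *CG7069*, which lies next to *PyK* on the same strand of 3R (22372835 to 22375579), had 11, 10 and 9 counts, and *CG11249* had 5, 5 and 9. *CG12229* had 0, 2 and 0 counts, *CG2964* had 1, 0 and 0, and *CG7362* had 0, 0 and 1, all at or under the 3 counts that a count of 0 allows. Of the pairs assigned to the 6 paralogs, 99.7% belonged to *PyK*. In these libraries *PyK* thus supplied nearly all of the counted pyruvate kinase transcript.

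**Figure D5:**
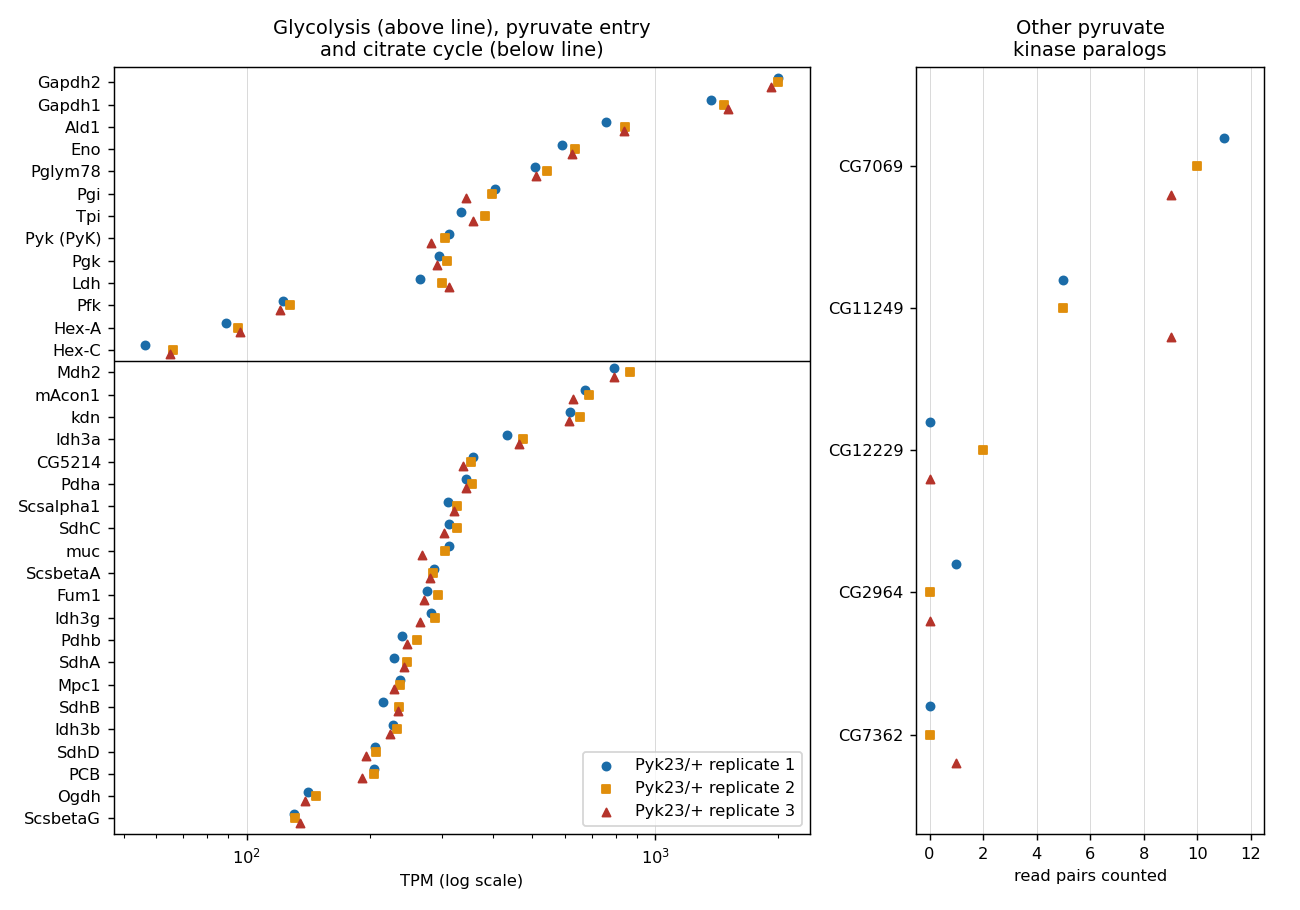
Left, TPM (horizontal axis, log scale) of the glycolytic genes (upper block) and of the genes of pyruvate entry and the citrate cycle (lower block), with 1 point per *Pyk*23/+ replicate. Right, read pairs counted (linear axis) for the 5 other pyruvate kinase paralogs, which reach at most 11 counts, whereas *Pyk* on the left lies at 283 to 312 TPM.

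Beyond pyruvate, all 21 genes of pyruvate entry and the citrate cycle were well counted, with levels between 132 and 817 TPM, a median of 280 TPM and 0.959% ± 0.0227 of the pairs. *Mdh2*, the mitochondrial malate dehydrogenase, had 817 ± 43.5 TPM, *mAcon1*, aconitase, 663 ± 31.5 TPM, *kdn*, citrate synthase, 628 ± 21.6 TPM and *Idh3a*, a subunit of the NAD-dependent isocitrate dehydrogenase, 457 ± 20.3 TPM. *Mpc1*, a subunit of the mitochondrial pyruvate carrier, had 234 ± 4.74 TPM, and *PCB*, pyruvate carboxylase, had 200 ± 7.97 TPM. This pathway was narrower in range than glycolysis, and its median excess variation was 2.59% against 4.74% for glycolysis.

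The shuttles, gluconeogenesis, pentose phosphate and trehalose genes took 0.541% ± 0.0263 of the pairs. *Taldo*, transaldolase, had 644 ± 36.7 TPM, *Mdh1*, the cytosolic malate dehydrogenase, 530 ± 21.7 TPM, *Gpdh1*, the glycerol-3-phosphate dehydrogenase of the NADH shuttle, 510 ± 20.7 TPM and *Got2*, an aspartate aminotransferase, 473 ± 30.8 TPM. The NADPH-producing pair *Zw* (glucose-6-phosphate dehydrogenase) and *Pgd* (phosphogluconate dehydrogenase) had 1144, 960 and 731 counts and 3284, 2825 and 2345 counts in replicates 1, 2 and 3. Both were highest in replicate 1 and lowest in replicate 3, like *FASN1*, which uses NADPH. *Tps1*, which makes trehalose, had 150 ± 12.1 TPM and *Treh*, which cleaves it, 52.7 ± 3.36 TPM. *fbp*, the fructose bisphosphatase of gluconeogenesis, had 252 ± 7.59 TPM, whereas *Pepck1* was at 0 in every control with 100% of its exon bases shared on the same strand, so its level was not measured.

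Markers of other cell types were present at low shares. The hemocyte list took 0.521% ± 0.0209 of the pairs, of which 58.5% came from the collagen IV gene *Col4a1* (768 ± 38.6 TPM), which the fat body also makes, and the second collagen chain *vkg* had 452 ± 20.5 TPM. Markers with a narrower range were far lower, with the scavenger receptor *crq* at 21.5 ± 1.54 TPM, the crystal cell enzyme *PPO2* at 20.9 ± 1.97 TPM, *Hml* at 10.8, 11.5 and 10.7 TPM and *NimC1*, a phagocytosis receptor, at 2.26 ± 0.263 TPM. The neuronal and glial list took 0.0934%, 0.0937% and 0.106% in replicates 1, 2 and 3, with *nrv3* (a neuronal sodium pump subunit) at 53.5 ± 6.21 TPM, *nSyb* (synaptobrevin) at 29.0 ± 1.53 TPM and *Gad1* (the GABA-synthesizing enzyme) at 24.4 ± 2.05 TPM. Replicate 3 was the highest for 11 of 14 well counted members of that list, against 33.5% of all well counted genes.

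Germline, tubule and stage markers completed this check of the label. *vas*, the germline RNA helicase, had 71, 72 and 76 counts and 4.29 ± 0.236 TPM, *aub* and *piwi*, which act in the piRNA pathway, had 2.25 ± 0.349 and 1.96 ± 0.254 TPM, and *osk* had none. *Uro*, the urate oxidase of the Malpighian tubules, had 718, 712 and 298 counts, whereas *Irk2*, a potassium channel of the same organ, had 1480, 1275 and 1070, and *NKCC*, an ion cotransporter, had 490, 463 and 506. *Uro* was thus the member of its list in which replicate 3 fell furthest below both others. Salivary glue and gland secretion genes, which mark the late L3 stage, had 17 of 21 genes at 3 counts or fewer, with all 11 listed *Eig71E* genes at 0, and yolk proteins, which mark adult females, were at 0 for *Yp1*, 2, 0 and 2 counts for *Yp2* and 6, 9 and 6 for *Yp3*. Chorion and vitelline membrane genes took 0.000179% of the pairs and chemoreceptors 0.00173%, with 167 of 185 chemoreceptor genes at 3 counts or fewer. Most markers of later larval and adult stages were therefore near the floor. Of the 21 glue and gland secretion genes, however, 2 had at least 10 counts in every control, and the highest TPM of that list was 10.3.

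Detoxification and stress genes were led by a few members. Glutathione S-transferases took 0.310% ± 0.0237 of the pairs, and *GstD1* (2087 ± 151 TPM) supplied 36.6% of these, ahead of *GstD7* (379 ± 69.4 TPM) and *GstE3* (287 ± 32.1 TPM). Cytochrome P450 genes took 0.191% ± 0.00142 over 80 genes, with a median of 19.3 TPM over the 45 well counted ones and none above the 137 ± 2.46 TPM of *Cyp6d5*. Heat shock proteins took 1.10%, 1.11% and 0.990%, led by constitutive members, *Hsc70-4* (2405 ± 120 TPM), the cytosolic Hsp70 cognate, *Hsp83* (1366 ± 137 TPM), the Hsp90 of the fly, and *Hsp60A* (631 ± 37.4 TPM), a mitochondrial chaperonin. The inducible *Hsp70* genes were at 1 count or none in each library, but they are near-identical copies and pairs that match several were not counted. *MtnA*, a metallothionein, had 359 ± 10.5 TPM, and the ferritin chains *Fer2LCH* and *Fer1HCH* had 293 ± 11.9 and 256 ± 8.32 TPM.

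Cytoskeletal genes used by most cells gave steady values. *alphaTub84B* had 2336 ± 99.9 TPM, *betaTub56D* 1477 ± 66.7 TPM and *Act5C*, a cytoplasmic actin, 1199 ± 31.6 TPM. Basement membrane genes took 0.851% ± 0.0237 of the pairs, with *SPARC*, a collagen-binding protein, at 425 ± 14.3 TPM and *LanA*, a laminin chain, at 110 ± 0.804 TPM. Of 116 histone genes, 112 were at 3 counts or fewer in every control. The 4 others were *His4r* (282 ± 3.02 TPM), *His2Av* (261 ± 6.17 TPM), *His3.3B* (229 ± 7.89 TPM) and *His3.3A* (112 ± 6.22 TPM), which are single replacement histone genes. The clustered histone genes are repeated copies whose transcripts lack poly(A) tails, so selection and mapping cannot be told apart here.

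Noncoding RNA genes were few among the well counted. *lncRNA:CR42862* was the highest at 269, 287 and 298 TPM, followed by the snoRNA host genes *Uhg2* (180 ± 5.23 TPM), *Uhg5* (141 ± 2.70 TPM) and *Uhg4* (135 ± 5.38 TPM) and by *hpRNA:CR18854* (138 ± 7.25 TPM), a hairpin RNA gene. *lncRNA:roX1*, an RNA of the male dosage compensation complex, had 2354, 2563 and 2210 counts (58.3 ± 3.47 TPM), and *lncRNA:roX2*, its partner, had 5.24 ± 0.116 TPM. *Sxl*, the switch gene of sex determination, had 17.4 ± 0.941 TPM and *mle*, a helicase of the same complex, 15.6 ± 0.245 TPM. The larvae were of mixed sex, and the replicates did not differ widely in these genes.

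The genes ranked highest by TPM had short coding sequences, a feature that the choice of libraries did not use. Division by exon length favors short genes in that ranking, and 55 of its first 100 genes encode cytosolic ribosomal proteins, which are themselves short. The 100 highest genes by TPM had a median coding sequence of 496.5 bases and 3 exons, against 1398 bases and 4 exons over the 9372 nuclear protein-coding genes with at least 10 counts in every control. The 100 highest by CPM, a scale not corrected for length, had a median of 805.5 bases and 4 exons. Their coding sequences were thus shorter than those of all, but their number of exons was the same. Respiratory chain genes (447 bases), cytosolic ribosomal proteins (466.5 bases) and cuticle proteins (573 bases) lay below the median of all, whereas sarcomere genes (1374 bases) lay close to it. Ranks by TPM depend on the annotated exon length, and 501 of the 17790 annotated genes have all of their exon bases shared on the same strand with another gene and could not be counted.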

How the data were processed

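The data are 3 *Pyk*23/+ libraries (TruSeq Stranded mRNA, paired ends) of whole L2 larvae. The authors deposited raw counts of read pairs per gene in the layout of STAR, unstranded and by strand. STAR and BDGP6 are named by the submitters' processing notes, with no version in the sources used here, whereas the study's methods describe another quantifier for its own tables. The counts on the strand that fits the kit were used. Only pairs that map to 1 place and 1 gene are in them: unmapped pairs made up 6.66% to 7.91%, multimapping pairs 4.47% to 4.72% and ambiguous pairs 2.25% to 2.26%. The 486 entries not named by a FlyBase gene number (0.0329% to 0.0341% of pairs) stayed out of library totals, and 79 genes without an entry in the annotation (0.218% to 0.223%) out of TPM.

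CPM used library totals, and TPM the union exon length of BDGP6.54 (Ensembl 115). Excess variation is the square root of the squared coefficient of variation less the counting variance, set to 0 where negative. The biological coefficient of variation came from edgeR 4.0.16 (R 4.3.3, intercept only, genes with at least 10 counts in total); other steps used Python 3.11.15 with numpy 2.4.6, pandas 2.3.3 and scipy 1.17.1. The steps were tested on simulated data. With 1 group there was no comparison to test, and no p-value was computed. Intervals (exact binomial, 95%) and floors (3 counts) take in counting error alone, because PCR duplicates of a molecule cannot be recognised.

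Named genes are the 20 highest by TPM (exon length of at least 200 bases), the 10 highest by CPM, the 4 highest by TPM of each list, marker genes at 3 counts or fewer, the 12 most and 8 least variable genes, and *Pyk*; other members were named after their values were seen. The libraries, gene lists and rules were chosen with earlier results of these data known. Some genes stand in several lists. Alternatives were leaving out each replicate, unstranded counts, TPM shares, TMM scaling, other length definitions and count minimums. Motifs, promoters and protein features, which were planned, were not analysed here, and gene structure from the annotation took their place.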

Additional observations from a re-analysis of the deposited data

Results flagged for a closer look

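Read pairs on the strand opposite to that used made up 2.52% of the pairs that either strand assigned, as the mean of the 3 controls, with 2.51% to 2.55% per library. They are named here because this column of the tables was not used for any level and exceeds the 3 counts that a count of 0 allows. Many of its counts fall on annotated antisense genes that overlap an abundant sense gene, and for the genes given next they follow the sense gene's own counts. *asRNA:CR44095* had 7014, 6501 and 6620 opposite-strand counts in replicates 1, 2 and 3, where *Cys*, which it overlaps, had 6999, 6486 and 6597 counts on its own strand. *asRNA:CR45713* had 69, 151 and 3566, where the overlapping *CG31626* had 77, 158 and 3937. For these genes such pairs are thus largely those already counted for the sense gene. The share of 2.52% was not divided by overlap, so it is no measure of antisense RNA. *asRNA:CR46005*, which overlaps *Lcp65Ag3*, had 18830, 17855 and 17177 opposite-strand counts and 66, 43 and 50 on its own strand. *asRNA:CR45874*, which overlaps *RpS9*, had 12176, 12389 and 11256 opposite-strand counts and 11, 10 and 8 on its own strand. In the unstranded counts such pairs overlap both genes. Of the genes with many opposite-strand counts, *sktl*, a phosphatidylinositol phosphate kinase, has no annotated gene over it on the other strand, and had 2418, 2668 and 1805 opposite-strand counts and 844, 964 and 898 on its own. *asRNA:CR44969*, also without an overlapping gene, had 1362, 1359 and 1489 opposite-strand counts and 0, 0 and 1 on its own. The genes named here were chosen after their values were seen, and for *sktl* and *asRNA:CR44969* the origin of the pairs was not tested.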

How the results depend on the processing

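No paired analysis was possible because the libraries form a single group, with no comparison to block. Of 229 alternative values that change the processing, 153 moved by less than the SD between replicates, or by less than 1.5 times for counts of genes, and 76 by more. Leaving out 1 of 3 replicates cannot move a mean by as much as that SD, so it was read by size. Nor can it raise a mean by over 1.5 times, so for shares, CPM and TPM only a fall could pass that bound. None of the 81 results moved by over 1.5 times without replicate 1 or 2, and 13 did without replicate 3. These 13 were the median excess variation and the CPM of the 12 most variable genes, such as *CG14147* (19.2 with all libraries and 0.129 without replicate 3). The 12 genes were chosen for their spread and had nearly all of their counts in replicate 3, so their fall followed from that choice. On the scale of TPM in place of counts, shares were 21.0% for cytosolic ribosomal proteins, 13.3% for the mitochondrial genome, 3.80% for the nuclear-encoded respiratory chain, 1.07% for gut serine proteases, 0.0761% for gut carbohydrases, 4.64% for cuticle proteins, 0.318% for fat body genes and 4.60% for the sarcomere. With *mt:lrRNA* left out, an alternative chosen after seeing the data, shares of counts were 12.7% for cytosolic ribosomal proteins, 3.90% for the mitochondrial genome, 3.07% for the respiratory chain, 1.34% for fat body genes and 8.66% for the sarcomere. Unstranded counts gave 8.26% for the sarcomere and 37.7% for the 100 most counted genes. The median excess variation was 3.49% with all libraries and 0% to 2.52% with each replicate left out in turn, 0% being the value without replicate 3. The 131 genes at least 2-fold higher in replicate 3 numbered 272 with a minimum mean of 10 counts and 11 with a minimum of 1000, which changes the number of genes considered. The length of the longest transcript moved the TPM of 9 single genes, and the exon bases that no other gene shares, also chosen after seeing the data, that of 2. Depth limits the genes under 10 counts per library, and pairs shared by overlapping or near-identical genes are not counted at any depth.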

Other observations

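Antimicrobial peptides, the effectors of the Toll and Imd immune pathways, were low in all 3 controls and highest in replicate 1. The 18 listed genes took 0.00306%, 0.00130% and 0.000667% of the pairs in replicates 1, 2 and 3, or 0.000983% as the mean without replicate 1, and 7 were at 3 counts or fewer in every control. *Drs* (drosomycin) had 104, 97 and 29 counts, *AttC* (an attacin) 55, 18 and 18, *DptB* (a diptericin) 30, 3 and 3 and *Mtk* (metchnikowin) 27, 5 and 8. None had a mean of at least 100 counts, so the spread of these genes rests on small counts. *IM33*, an immune-induced gene outside that list, was among the 100 highest transcripts at 2122 ± 63.7 TPM.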
